A study of Danio rerio with 24 samples.

Results

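The genes described here encode the proteasome, the protease complex that breaks down ubiquitin-tagged proteins, together with its assembly chaperones and regulators. They were taken as every protein-coding gene of the deposited tables whose symbol runs from psma to psmg followed by a digit, which gave 55 of 31901 genes, 25431 of which are annotated as protein coding. RNA was sequenced from whole wildtype zebrafish embryos in 24 libraries, 4 for each of 6 groups. Exposed embryos received 40 µM TBBPA (tetrabromobisphenol A, a brominated flame retardant) and their controls received vehicle without TBBPA, and all 6 groups were kept in 0.1% DMSO (dimethyl sulfoxide). Exposure began at 0.75 hours post fertilization (hpf), and embryos were collected at 2, 3.5 or 4.5 hpf, stages that span the switch from maternal to zygotic transcripts. The title of the series names zygotic transcription and histone acetylation as its subject, and each stage was set against its own vehicle group.

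In yeast and mammals, where the roles given below are known from, the 26S proteasome consists of a 20S core particle capped by 19S regulatory particles. The core is a stack of rings of alpha subunits (psma genes), which gate the entry, around rings of beta subunits (psmb genes), some of which carry the proteolytic sites. The 19S particle holds a ring of ATPases (psmc genes), which unfold the substrate, and non-ATPase subunits (most psmd genes), which bind ubiquitin chains, remove them and hold the particle together. Dedicated chaperones (psmg genes, psmd5, psmd9 and psmd10) build the particles, and alternative activators (psme genes) and the inhibitor-type protein PI31 (psmf1) bind the core. By function the 55 genes comprised 9 alpha-ring genes, 7 constitutive beta-ring genes, 7 genes of inducible, thymic or teleost-specific beta subunits, 7 ATPase genes, 12 non-ATPase genes, 6 chaperone genes and 6 activator or inhibitor genes. The remaining gene, psmc3ip, encodes a recombination factor named for its binding to an ATPase subunit and is not a proteasome component, but its symbol met the rule.

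The deposited values were fragments counted on a gene, in a unit that the labels name FPKM. They were relative to gene length and to a size factor of the library (median-of-ratios, which keeps the median gene level), not to total reads. They came from 2 tables scaled separately by the authors, 1 with the 8 libraries of 2 hpf and 1 with the 16 libraries of 3.5 and 4.5 hpf, so levels at 2 hpf are set beside the later ones without a test. The recovered reads per library numbered 10633374 to 20018379, and the 36 pairs of libraries within a group correlated at Pearson r of 0.991 to 0.997. Embryonic identity was clear from markers. Summed over 6 maternal blastula genes the level was 1997 to 2805 FPKM in all 24 libraries, whereas markers of leukocytes, of heart and muscle, and of neurons summed to at most 0.507, 0.594 and 1.254 FPKM. Summed over 5 zygotic blastula genes, the level at 4.5 hpf was 152 to 177 FPKM in TBBPA and 346 to 377 FPKM in DMSO libraries. The share of reads on mitochondrially encoded genes was 1.70 to 1.98% in TBBPA and 2.41 to 2.55% in DMSO libraries at 4.5 hpf. The summed FPKM of a library was 413743 to 426367 in DMSO embryos of 4.5 hpf and 364684 to 375794 in the other 12 libraries of the shared table. What part these differences have in the results below was not tested. In whole embryos, fewer cells of a type and less RNA per cell cannot be told apart, and the labels do not say whether the 4 libraries of a group came from separate clutches, so the p-values cover only the spread among these libraries.

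Of the 55 genes, 46 reached at least 1 FPKM in at least 4 of the libraries compared in each comparison of the shared table, and 42 did so at 2 hpf. None of them passed only through the libraries of 1 group. The genes tested later but not at 2 hpf were psma1, psma6b, psmd4a and psmd10. Of the 9 genes that never passed, the alpha-ring gene psma5 and the activator gene psme1 were listed at 0 in all 24 libraries. The thymic beta-subunit genes psmb11a and psmb11b had 1 and 3 reads over the 24 libraries together. The teleost gene psmb13a had 17 reads, the immunoproteasome genes psmb8a and psmb9a had 111 and 173, the activator gene psme2 had 99 and the alpha-ring paralog psma6l had 264. These genes are described here by their levels alone. The values of 0 for psma5 and psme1 are not read as absence of the transcripts, since how reads were assigned to these genes was not tested.

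The members lay on 21 chromosomes, by the positions in the tables, whose genome build is not given in the sources used here. Chromosome 19 held 9 of them. There psmb8a (7105838 to 7144548, minus strand), psmb13a (7111779 to 7144585, minus strand), psmb12 (7115223 to 7119456, plus strand) and psmb9a (7120380 to 7122373, plus strand) formed a cluster in the annotation, where psmb8a and psmb13a overlapped each other and both psmb12 and psmb9a, in a stretch that also holds the peptide transporter gene tap2a. On chromosome 2 the weakly read psmb11a (38370535 to 38371942, plus strand) ended close to the start of psmb5 (38373272 to 38392575, plus strand). In all, 19 of the 55 members overlapped another annotated gene. The labels' protocol for the libraries gives both directional and non-directional kits, so reads of a member and of an antisense partner could not be told apart, and this touches psma1, psma2, psma6b, psmb2, psmb12, psmc1a, psmd1, psmd4a, psmd7, psmd10, psme3, psmg3 and psmc3ip among the tested genes. On the same strand psma2, psmb1 and psmd11b overlapped other genes, and psmd4a overlapped a gene annotated as a further copy of PSMD4, so the split of reads between these is uncertain. The same limit holds for the untested psmb8a and psmb13a, which overlapped each other on the minus strand.

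**Figure D1:**
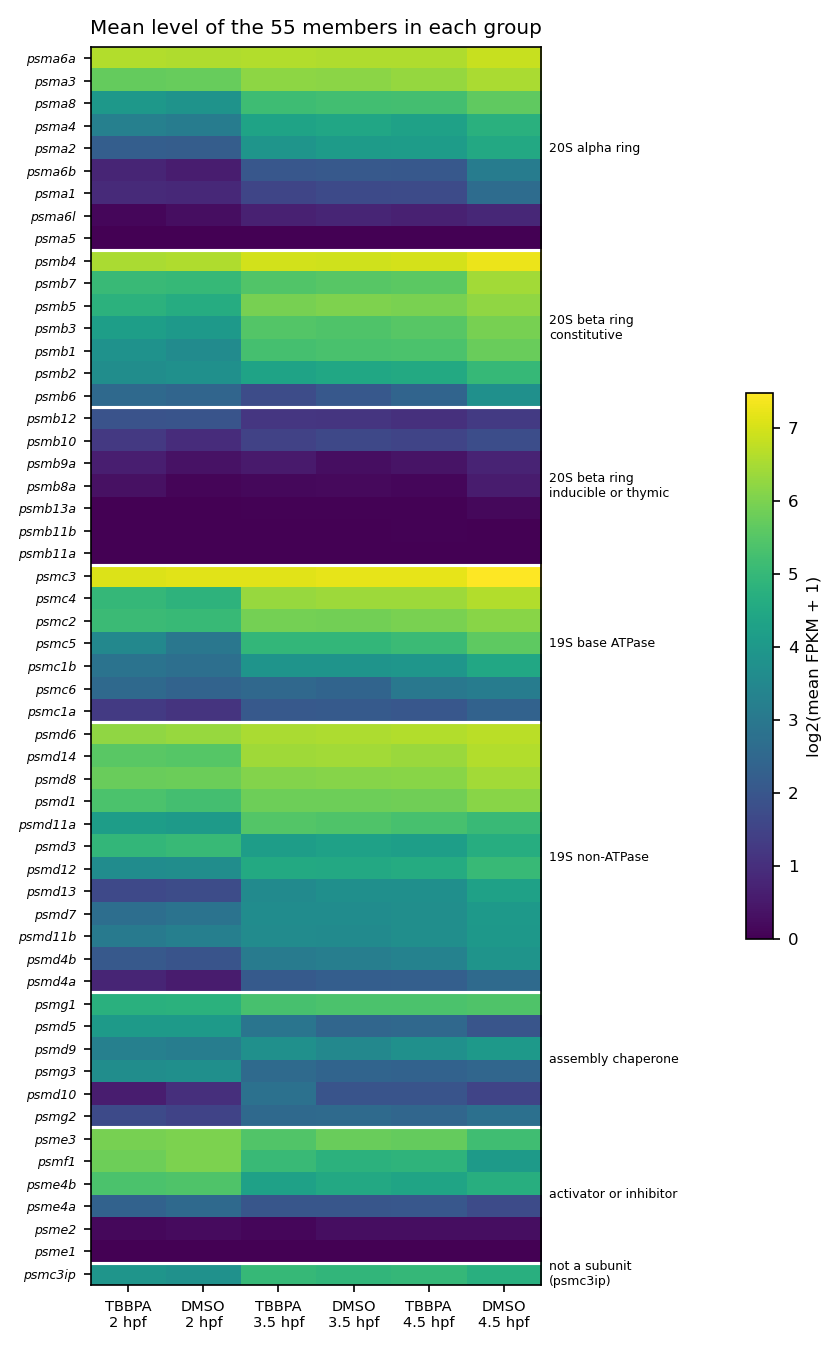
Mean level of the 55 members in each group, drawn as log2(mean FPKM + 1) of 4 libraries, with TBBPA left of DMSO at each time and the genes ordered by subcomplex and level. The psmc3 row is the brightest, at 147 ± 5.6 FPKM in TBBPA and 178 ± 5.7 FPKM in DMSO embryos of 4.5 hpf, and psma5 and psme1, listed at 0 in every library, are the darkest rows.

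Proteasome transcripts were already abundant at 2 hpf, when zebrafish embryos live mainly on maternal transcripts, and most had higher means at the later times in both treatments. The 55 genes together held 0.311% ± 0.024 of the summed FPKM of a library in TBBPA and 0.302% ± 0.0054 in DMSO embryos of 2 hpf (mean ± SD, n = 4). They held 0.417% ± 0.011 in TBBPA and 0.419% ± 0.0072 in DMSO embryos of 3.5 hpf, and 0.429% ± 0.014 in TBBPA and 0.457% ± 0.013 in DMSO embryos of 4.5 hpf. In TBBPA embryos the mean FPKM at 3.5 hpf was a median 1.73 times that at 2 hpf over 46 genes, and 25 of the 46 ratios exceeded 1.5. In DMSO embryos the median ratio was 1.85, and 26 of the 46 ratios exceeded 1.5. The 46 genes are those tested at the later times. They include psma1, psma6b, psmd4a and psmd10, which did not pass the filter at 2 hpf, so the selection favors higher ratios. Ratios over all genes were not computed and the tables were scaled separately, so no rise particular to the members can be read from these values.

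Levels differed widely between genes of the same particle. At 2 hpf in DMSO embryos the ATPase gene psmc3 had 141 ± 7.5 FPKM, the alpha-ring gene psma6a 94.98 ± 6.8, the beta-ring gene psmb4 94.9 ± 3.9 and the non-ATPase gene psmd6 78.7 ± 6.2 FPKM. The SD ranges of psma6a and psmb4 overlapped, so their order was not resolved. At the other end, psma1 had 0.812 ± 0.36 FPKM, psma6b 0.524 ± 0.22 and psmd4a 0.491 ± 0.34 FPKM at that stage. The genes with the lowest levels included paralogs of better expressed copies, but psma1 has no second copy among the members.

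Where duplicated genes supply a subunit, 1 paralog had the highest listed level. The alpha-ring paralog psma6a had 115 ± 7.4 FPKM in DMSO embryos of 4.5 hpf, against 7.79 ± 1.8 for psma6b and 0.799 ± 0.21 for psma6l. The ATPase paralog psmc1b had 21.3 ± 1.9 FPKM and psmc1a 4.14 ± 0.70, the non-ATPase paralog psmd11a 32.6 ± 1.4 and psmd11b 15.01 ± 0.45, and the ubiquitin-receptor paralog psmd4b 13.7 ± 1.1 and psmd4a 5.06 ± 0.51. The nuclear activator paralog psme4b (which encodes a form of PA200) had 24.6 ± 2.1 FPKM and psme4a 2.27 ± 0.17. In each of these sets the SD ranges of the paralogs did not overlap in that group. The counts of psmd11b and psmd4a are uncertain, because both overlap another gene on the same strand. Their order against their paralogs is therefore less certain.

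A minority of members was higher at 2 hpf than later. The gene of PI31, psmf1, had 55.6 ± 5.9, 32.4 ± 2.8 and 28.2 ± 1.4 FPKM at 2, 3.5 and 4.5 hpf in TBBPA embryos and 62.7 ± 6.5, 27.2 ± 1.4 and 15.7 ± 2.0 FPKM in DMSO embryos. The ATPase-ring chaperone gene psmd5 had 16.01 ± 2.1, 6.44 ± 0.77 and 4.81 ± 0.23 FPKM in TBBPA embryos and 15.99 ± 0.64, 4.51 ± 0.82 and 2.95 ± 0.074 FPKM in DMSO embryos. The activator gene psme4b, the core-chaperone gene psmg3 and the non-ATPase gene psmd3 also had lower means at 3.5 hpf than at 2 hpf in both treatments, with psmd3 at 29.7 ± 2.9 and 16.9 ± 1.2 FPKM in TBBPA embryos.

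At 2 hpf none of the 42 tested members passed an adjusted p of 0.05 in limma's moderated test on log2(FPKM + 1), and the same was true of all 11061 genes tested (0% called in either direction, 795 genes at an unadjusted p under 0.05, and 0 calls with limma voom on recovered reads). The smallest adjusted p over all genes was 0.434. The largest member difference was in the ATPase gene psmc5, at 8.67, 10.6, 9.82 and 11.6 FPKM in the 4 TBBPA libraries and 8.46, 7.25, 6.34 and 4.92 FPKM in the 4 DMSO libraries. These libraries did not overlap, and the log2 difference was 0.54 with a standard error (SE) of 0.15 and an adjusted p of 0.684 in limma. The activator gene psme4a did not overlap either, at 4.61, 3.41, 4.27 and 4.25 FPKM in TBBPA and 4.84, 4.95, 4.71 and 4.94 FPKM in DMSO libraries. Over all genes 2.09% were higher and 2.39% lower in TBBPA without overlap, against 1 gene each among the 42. On the log2(FPKM + 1) scale the 95% confidence interval excluded a 2-fold change for 39 of the 42 genes and a 1.5-fold change for 35. That scale understates fold changes in FPKM of weakly expressed genes, so for such genes these counts do not bound the ratio of FPKM.

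At 3.5 hpf 4 of 46 tested members passed the threshold, 2 higher and 2 lower in TBBPA, while 6.67% of all 11859 genes tested were called higher and 5.34% lower. The higher genes were psmd5 and psmf1. The gene psmd5 had 7.52, 5.94, 6.49 and 5.82 FPKM in TBBPA and 5.33, 5.10, 3.81 and 3.81 FPKM in DMSO libraries, which did not overlap (log2 difference 0.44, SE 0.11, limma adjusted p = 0.0329). The gene psmf1 had 35.4, 34.1, 30.0 and 30.0 FPKM in TBBPA and 29.1, 26.1, 27.4 and 26.3 FPKM in DMSO libraries, again without overlap (log2 difference 0.24, SE 0.060, limma adjusted p = 0.0302). The lower genes were psma2 of the alpha ring and the activator gene psme4b. The level of psma2 was 13.5, 14.7, 14.3 and 13.4 FPKM in TBBPA and 16.5, 15.7, 17.0 and 16.3 FPKM in DMSO libraries (log2 difference -0.22, SE 0.046, limma adjusted p = 0.0139), and all TBBPA libraries lay below all DMSO libraries. That of psme4b was 17.8, 18.5, 17.4 and 20.2 FPKM in TBBPA and 20.5, 22.1, 22.3 and 22.5 FPKM in DMSO libraries (log2 difference -0.23, SE 0.053, limma adjusted p = 0.0174).

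These calls at 3.5 hpf were close to the threshold. The psmd5 call was lost without DMSO replicate 3 or 4 or TBBPA replicate 1, 2 or 3. The psmf1 call was lost without DMSO replicate 2, 3 or 4 or TBBPA replicate 1 or 2, and that of psme4b without DMSO replicate 2, 3 or 4 or TBBPA replicate 1. The psma2 call held without any 1 library. Calls were gained for psmb6 without TBBPA replicate 1 and for psmd9 without DMSO replicate 2 (limma adjusted p = 0.0352 and 0.0206). Libraries did not overlap for 2 higher and 4 lower members (10.4% and 6.82% of all genes), and the 4 lower ones were psma2, psmc4, psmd4a and psme4b. On the log2(FPKM + 1) scale, with the same limit for weakly expressed genes, the 95% interval excluded a 1.5-fold change for 42 of the 46 genes and a 2-fold change for 43. The chaperone gene psmd10 was uneven at this stage, with 3.04, 3.01, 7.75 and 9.64 FPKM in TBBPA and 3.46, 3.27, 2.56 and 2.21 FPKM in DMSO libraries. Its high values in TBBPA came from replicates 3 and 4, and the difference did not pass (limma adjusted p = 0.185).

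At 4.5 hpf most proteasome genes were lower in TBBPA embryos. Of 46 tested members 33 were lower and 6 higher in TBBPA than in DMSO embryos of that age, and 7 were not called. Of all 12324 genes tested 35.0% were lower and 33.1% higher. The median log2 difference of the 46 genes was -0.30, against -0.02 over all genes tested. The members without overlap between libraries were 30 lower and 5 higher, beside 32.3% and 31.0% of all genes. Under the deposited scaling, genes with a lower RNA level were found in each subcomplex of the 26S particle. Of the 33 tested genes for the alpha ring, the constitutive beta ring, the ATPase ring and the non-ATPase subunits, 30 were lower. The gene psmd11a was higher, and psmc6 and psmd6 were not called. The log2 differences of the 33 genes had a median of -0.34 and ranged from -1.35 to 0.22. The alpha-ring gene psma5, listed at 0 in every library, was not tested. With every library rescaled to the same FPKM sum, psma3, psma6a, psmb5, psmc1a, psmc2, psmc4 and psmd4a were no longer called lower.

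**Figure D2:**
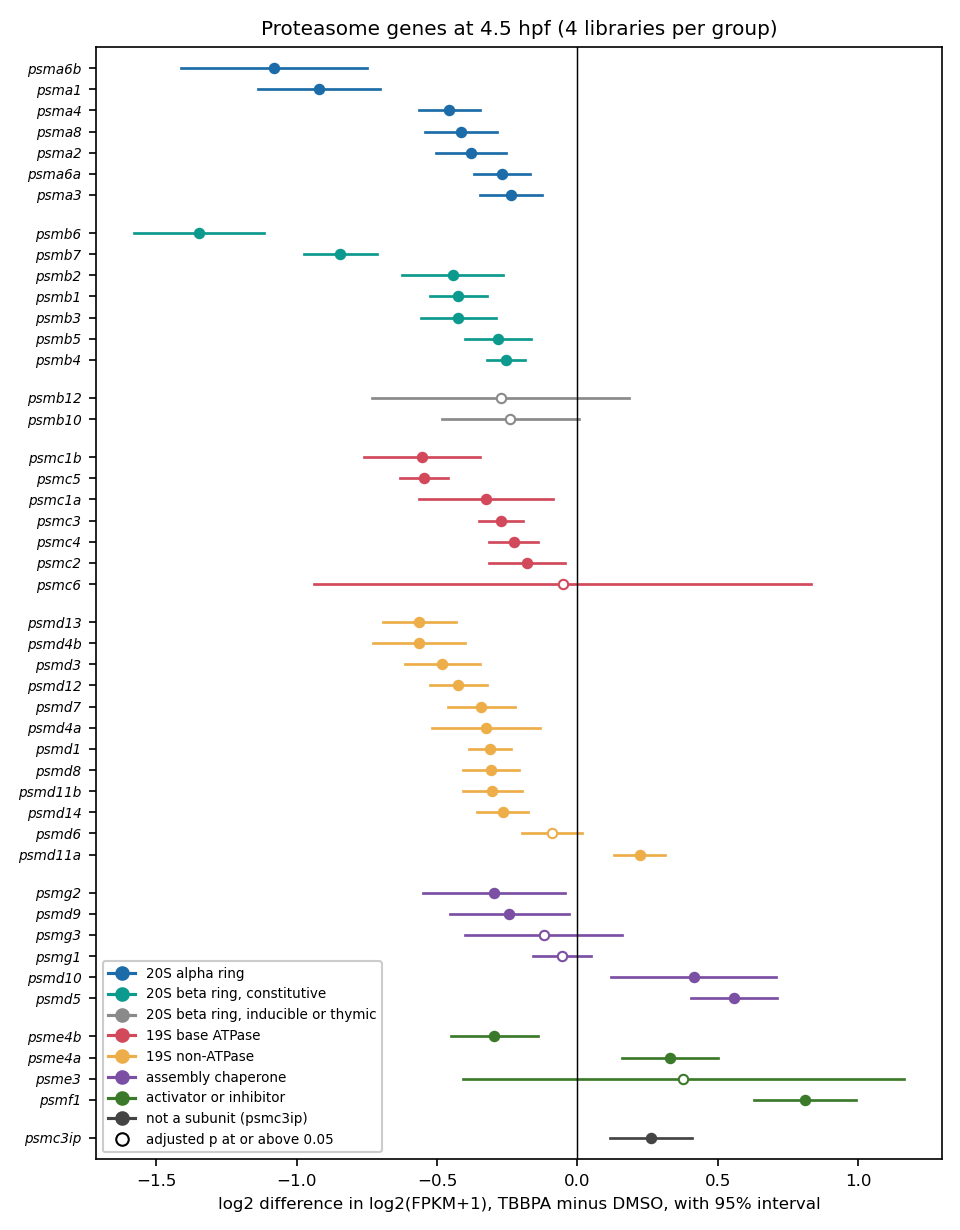
Log2 difference between TBBPA and DMSO embryos of 4.5 hpf for the 46 tested members, with 95% confidence intervals (4 libraries per group), grouped by subcomplex and with open symbols for genes at or above the adjusted p threshold of 0.05. Filled points lie left of 0 for 33 genes, with psmb6 farthest at -1.35, and right of 0 for 6 genes, with psmf1 farthest at 0.81.

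In the constitutive beta ring, which carries the proteolytic sites, 7 of 7 genes were lower in TBBPA under the deposited scaling. The largest difference of any member was in psmb6, which encodes the caspase-like site. It had 4.09, 4.99, 4.07 and 3.98 FPKM in TBBPA and 11.9, 13.8, 10.3 and 13.9 FPKM in DMSO libraries, so the highest TBBPA library lay below every DMSO library. The mean in TBBPA was 0.343 times that in DMSO, and the log2 difference was -1.35 (SE 0.10, limma adjusted p = 1.56e-06). The gene of the trypsin-like site, psmb7, had 49.4, 43.7, 48.4 and 46.3 FPKM in TBBPA and 79.1, 83.7, 83.4 and 94.9 FPKM in DMSO libraries. All 4 TBBPA libraries were lower by a wide gap (log2 difference -0.85, SE 0.058, limma adjusted p = 8.16e-07). The gene of the chymotrypsin-like site, psmb5, differed less, with 56.7, 64.8, 64.5 and 60.1 FPKM in TBBPA and 72.3, 77.3, 70.8 and 79.7 FPKM in DMSO libraries. Its libraries did not overlap either (log2 difference -0.28, SE 0.053, limma adjusted p = 8.35e-04). The structural subunit genes psmb1, psmb2, psmb3 and psmb4 had log2 differences of -0.42, -0.44, -0.42 and -0.26, and for psmb2 the libraries held 20.4, 24.2, 22.2 and 23.0 FPKM in TBBPA and 30.9, 32.7, 26.3 and 34.1 FPKM in DMSO embryos. The genes of the catalytic subunits thus included the most and nearly the least changed of the ring.

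**Figure D3:**
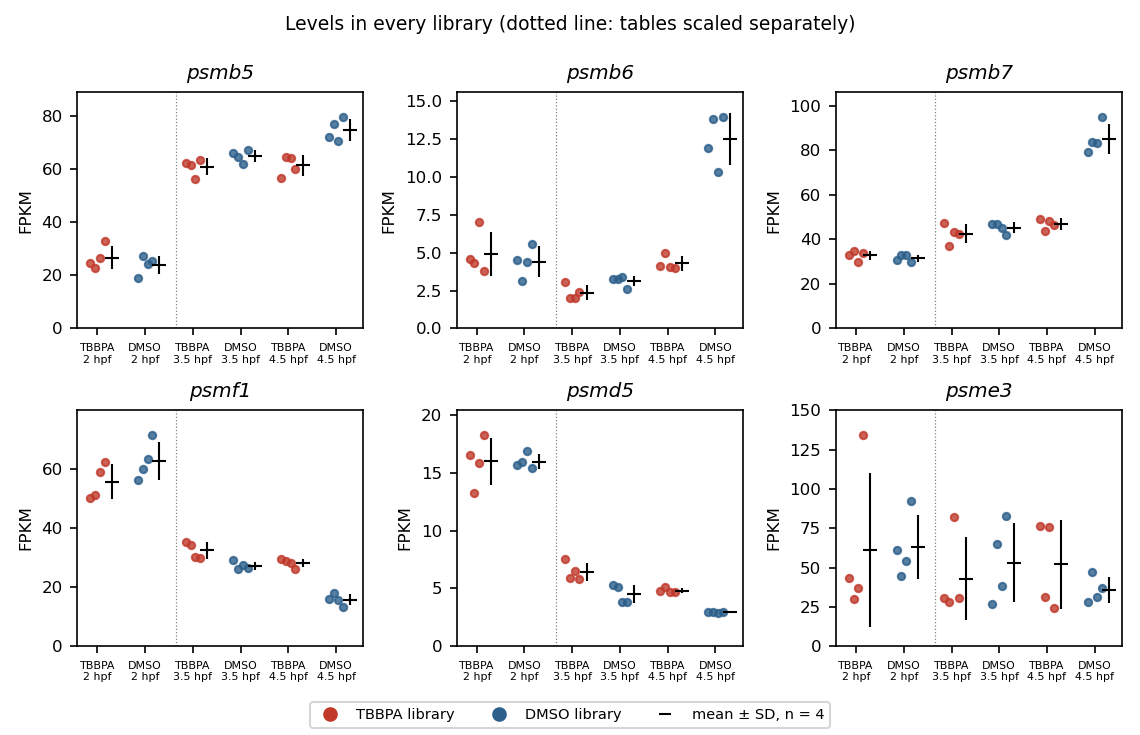
FPKM of 6 members in every library, with TBBPA left of DMSO at each time, the mean ± SD beside the 4 points of a group and a dotted line between the separately scaled tables. The catalytic genes psmb5, psmb6 and psmb7 are lower in TBBPA than in DMSO at 4.5 hpf, psmf1 and psmd5 are higher, and psme3 varies from 24.3 to 134 FPKM between libraries.

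In the alpha ring, 7 of 7 tested genes were lower in TBBPA under the deposited scaling. The gene psma6b had 2.91, 3.41, 2.41 and 3.80 FPKM in TBBPA and 7.34, 6.25, 7.23 and 10.4 FPKM in DMSO libraries, without overlap (log2 difference -1.08, SE 0.15, limma adjusted p = 9.06e-05). Its abundant paralog psma6a had 95.6, 91.5, 96.3 and 97.6 FPKM in TBBPA and 113, 114, 108 and 126 FPKM in DMSO libraries. Those also did not overlap, but the log2 difference was -0.27 (SE 0.045, limma adjusted p = 3.57e-04). The gene psma1 had 2.43, 1.90, 2.24 and 2.59 FPKM in TBBPA and 4.95, 4.62, 5.52 and 5.83 FPKM in DMSO libraries (log2 difference -0.92, SE 0.097, limma adjusted p = 1.35e-05), a ratio of means of 0.438. The other alpha-ring genes psma2, psma3, psma4 and psma8 had log2 differences between -0.46 (psma4) and -0.24 (psma3). For psma2 the libraries held 17.6, 16.5, 16.02 and 16.5 FPKM in TBBPA and 21.7, 22.7, 20.1 and 23.5 FPKM in DMSO embryos, so it was lower in TBBPA at 3.5 and at 4.5 hpf. The weak paralog psma6l had 0.623 ± 0.082 FPKM in TBBPA and 0.799 ± 0.21 FPKM in DMSO embryos and was not tested.

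Inducible beta subunits replace the constitutive ones in the immunoproteasome of vertebrates, and their genes had low levels at all 3 times. The gene psmb10 had 2.27, 1.62, 1.62 and 1.99 FPKM in TBBPA and 2.20, 2.21, 2.23 and 2.94 FPKM in DMSO libraries, with overlap (log2 difference -0.24, 95% interval -0.48 to 0.00, limma adjusted p = 0.0752). The teleost gene psmb12, which lies inside the overlapping chromosome 19 genes, had 2.05, 0.464, 0.817 and 0.831 FPKM in TBBPA and 1.504, 1.75, 0.969 and 1.33 FPKM in DMSO libraries (log2 difference -0.27, 95% interval -0.73 to 0.18, limma adjusted p = 0.261). Neither was called in any comparison with all libraries, and psmb10 was called lower at 4.5 hpf without TBBPA replicate 1 (limma adjusted p = 0.0371). The untested psmb8a lay at 0.134, 0.167, 0 and 0.0373 FPKM in TBBPA and 0.454, 0.591, 0.392 and 0.507 FPKM in DMSO libraries of 4.5 hpf, and psmb9a at 0.423, 0.234, 0.169 and 0.419 FPKM in TBBPA and 0.683, 0.913, 0.489 and 0.594 FPKM in DMSO libraries. The values of both were higher in every DMSO library than in every TBBPA library at that time, all under 1 FPKM. Of all genes tested 32.3% were likewise lower in TBBPA without overlap. The highest count in any of the 24 libraries was 14 reads for psmb8a and 22 for psmb9a. The psmb8a count is uncertain, because the gene overlaps psmb13a on the same strand. All 7 genes of this class together summed to 3.36 ± 1.1 FPKM in TBBPA and 5.08 ± 0.61 FPKM in DMSO embryos, against 347 ± 5.1 and 471 ± 24.7 FPKM for the constitutive genes.

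Of the 7 ATPase genes, whose products form the unfolding ring, 6 were lower in TBBPA under the deposited scaling. The gene psmc5 had 31.7, 34.8, 33.2 and 33.1 FPKM in TBBPA and 46.9, 49.7, 49.5 and 49.3 FPKM in DMSO libraries, without overlap (log2 difference -0.55, SE 0.039, limma adjusted p = 9.54e-07). Both copies of the psmc1 pair were lower in TBBPA. For psmc1b the libraries held 14.3, 12.1, 16.7 and 14.0 FPKM in TBBPA and 19, 21.7, 21.0 and 23.6 FPKM in DMSO embryos. For the weaker psmc1a the libraries held 2.79, 3.43, 2.95 and 3.16 FPKM in TBBPA and 3.47, 4.55, 4.91 and 3.64 FPKM in DMSO embryos. The log2 differences were -0.55 for psmc1b and -0.32 for psmc1a (limma adjusted p = 3.71e-04 and 0.0204). The psmc1a call was lost without DMSO replicate 2 or 3 or TBBPA replicate 1. The most abundant member, psmc3, had 147 ± 5.6 FPKM in TBBPA and 178 ± 5.7 FPKM in DMSO embryos (log2 difference -0.27). The smallest called difference was in psmc2, at -0.18. Its libraries overlapped, and its call was lost without DMSO replicate 2 or 4 or TBBPA replicate 2 or 4. The gene psmc6 had 3.23, 7.79, 8.77 and 8.36 FPKM in TBBPA and 2.66, 6.13, 11.7 and 10.9 FPKM in DMSO libraries, a spread within each group that left a 95% interval of -0.94 to 0.83 on the log2 difference.

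Of the 12 non-ATPase genes of the 19S particle, 10 were lower in TBBPA under the deposited scaling, psmd11a was higher and psmd6 was not called. The lid subunit gene psmd13 had 12.98, 11.8, 11.995 and 11.7 FPKM in TBBPA and 18.5, 17.9, 17.2 and 19.9 FPKM in DMSO libraries, without overlap (log2 difference -0.56, SE 0.058, limma adjusted p = 1.14e-05). The paralogs of the ubiquitin receptor psmd4 were both lower, with log2 differences of -0.56 for psmd4b and -0.33 for psmd4a. For psmd4b the libraries held 9.63, 9.23, 8.10 and 8.73 FPKM in TBBPA and 13.4, 12.6, 13.3 and 15.3 FPKM in DMSO embryos, and for psmd4a 3.67, 3.87, 4.25 and 3.53 FPKM in TBBPA and 4.86, 4.43, 5.52 and 5.43 FPKM in DMSO embryos. The gene of the deubiquitinating subunit, psmd14, had 81.4 ± 4.4 FPKM in TBBPA and 98.1 ± 2.5 FPKM in DMSO embryos, a log2 difference of -0.27 (limma adjusted p = 1.79e-04). Its partner psmd7 differed by -0.34 and the scaffold gene psmd1 by -0.31. The psmd6 libraries overlapped, with 96.5 ± 6.6 FPKM in TBBPA and 103 ± 2.4 FPKM in DMSO embryos, and the 95% interval of the log2 difference was -0.20 to 0.02.

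The psmd11 paralogs, which encode a lid subunit, differed between TBBPA and DMSO embryos in opposite directions. The abundant copy psmd11a had 38.5, 37.9, 39.2 and 37.0 FPKM in TBBPA and 33.4, 34.2, 31.8 and 31.1 FPKM in DMSO libraries, higher in every TBBPA library (log2 difference 0.22, SE 0.041, limma adjusted p = 7.18e-04). The copy psmd11b had 12.4, 11.8, 12 and 11.8 FPKM in TBBPA and 15.2, 14.8, 14.5 and 15.6 FPKM in DMSO libraries, lower in every TBBPA library (log2 difference -0.30, SE 0.047, limma adjusted p = 2.17e-04). At 3.5 hpf neither passed, with 43.2 ± 0.79 FPKM in TBBPA and 41.6 ± 1.0 FPKM in DMSO embryos for psmd11a and 11.3 ± 0.16 and 11.03 ± 0.42 FPKM for psmd11b. The same split was seen in the PA200 paralogs: psme4a was higher and psme4b lower in TBBPA at 4.5 hpf.

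Of the 6 assembly chaperone genes 2 were higher, 2 lower and 2 not called, a share in each direction near that of all genes (33.1% higher and 35.0% lower). The ATPase-ring chaperone gene psmd5 had 4.77, 5.15, 4.67 and 4.66 FPKM in TBBPA and 2.98, 2.99, 2.84 and 2.98 FPKM in DMSO libraries, a tight pair of groups without overlap (log2 difference 0.56, SE 0.069, limma adjusted p = 4.19e-05). The gankyrin gene psmd10, also an ATPase-ring chaperone, had 3.32, 2.47, 3.07 and 2.49 FPKM in TBBPA and 1.43, 1.64, 1.97 and 2.55 FPKM in DMSO libraries. These overlapped, and its call (log2 difference 0.41, limma adjusted p = 0.0173) was lost without TBBPA replicate 1. The third ATPase-ring chaperone gene, psmd9, was lower (-0.24, limma adjusted p = 0.0437), as was the core-chaperone gene psmg2 (-0.30, limma adjusted p = 0.0384). Libraries of both overlapped. The psmd9 call was lost without any 1 of DMSO replicates 1, 2 and 4 and TBBPA replicates 1, 2 and 4, and that of psmg2 without DMSO replicate 2 or 4 or TBBPA replicate 1, 2 or 4. The core-chaperone genes psmg1 and psmg3 gave log2 differences of -0.05 and -0.12 that did not pass, and under rescaling of each library to the same FPKM sum psmg1 was higher in TBBPA.

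Among the regulators of the core particle, psmf1, the gene of PI31, had the largest positive difference of any member. It had 29.5, 28.9, 28.2 and 26.2 FPKM in TBBPA and 16.1, 17.9, 15.7 and 13.2 FPKM in DMSO libraries, higher in every TBBPA library (log2 difference 0.81, SE 0.081, limma adjusted p = 9.85e-06). The PA200 paralog psme4a had 2.90, 3.26, 3.07 and 3.19 FPKM in TBBPA and 2.23, 2.10, 2.51 and 2.24 FPKM in DMSO libraries (log2 difference 0.33, SE 0.077, limma adjusted p = 0.00328). The paralog psme4b had 19.3, 19.8, 18.4 and 21.8 FPKM in TBBPA and 23.5, 22.2, 26.2 and 26.4 FPKM in DMSO libraries (log2 difference -0.30, SE 0.069, limma adjusted p = 0.00324). Neither paralog overlapped between treatments, and they differed in direction. The recombination factor gene psmc3ip had 29.0, 32.6, 29.4 and 30.4 FPKM in TBBPA and 24.5, 28.0, 22.5 and 25.8 FPKM in DMSO libraries (log2 difference 0.26, SE 0.066, limma adjusted p = 0.00510), and counted as the sixth higher member without being a proteasome component.

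The nuclear activator gene psme3 (PA28 gamma) varied more between libraries of a group than between treatments. At 2 hpf it had 43.2, 30.3, 37.0 and 134 FPKM in TBBPA and 61.0, 44.8, 54.4 and 92.4 FPKM in DMSO libraries. At 3.5 hpf it had 30.5, 28.0, 82.3 and 30.4 FPKM in TBBPA and 26.5, 65.0, 38.5 and 82.7 FPKM in DMSO libraries, and at 4.5 hpf 76.7, 31.1, 75.8 and 24.3 FPKM in TBBPA and 28.1, 47.2, 31.0 and 36.9 FPKM in DMSO libraries. The highest library of a group held 1.68 to 4.44 times the level of the lowest. At 4.5 hpf 2 of the 4 TBBPA libraries lay above every DMSO library and the other two within or below their range. The gene was not called in any comparison without a block and with all libraries, but in DMSO embryos it was lower at 4.5 than at 3.5 hpf with the replicate number as a block (log2 difference -0.45, limma adjusted p = 0.0415) and without DMSO replicate 1 of 3.5 hpf (-0.74, limma adjusted p = 0.0233). The 95% interval of its difference between TBBPA and DMSO at 4.5 hpf was -0.41 to 1.16 on the log2 scale. For the ATPase gene psmc6 the ratio of the highest to the lowest library was 2.67 to 6.25 in the 6 groups. By comparison the median coefficient of variation over the groups was 2.44% for psmd1 and 3.22% for psmb4.

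Levels at 4.5 and 3.5 hpf were then compared within each treatment. In TBBPA embryos 3 of 46 members rose within that hour and 2 fell, where 6.15% of all 11877 genes tested rose and 8.60% fell. The median log2 change was 0.05 over members and -0.01 over all genes. Libraries did not overlap for 6 higher and 3 lower members, beside 8.85% and 12.4% of all genes. In DMSO embryos 32 members rose and 6 fell, where 35.8% of all 12354 genes tested rose and 34.3% fell, with a median of 0.32 over members and 0.02 over all genes. Libraries did not overlap for 30 higher and 4 lower members, beside 32.9% and 31.9% of all genes. The rises in DMSO embryos covered 7 of 7 tested alpha-ring genes, 7 of 7 constitutive beta-ring genes, 5 of 7 ATPase genes and 11 of 12 non-ATPase genes.

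**Figure D4:**
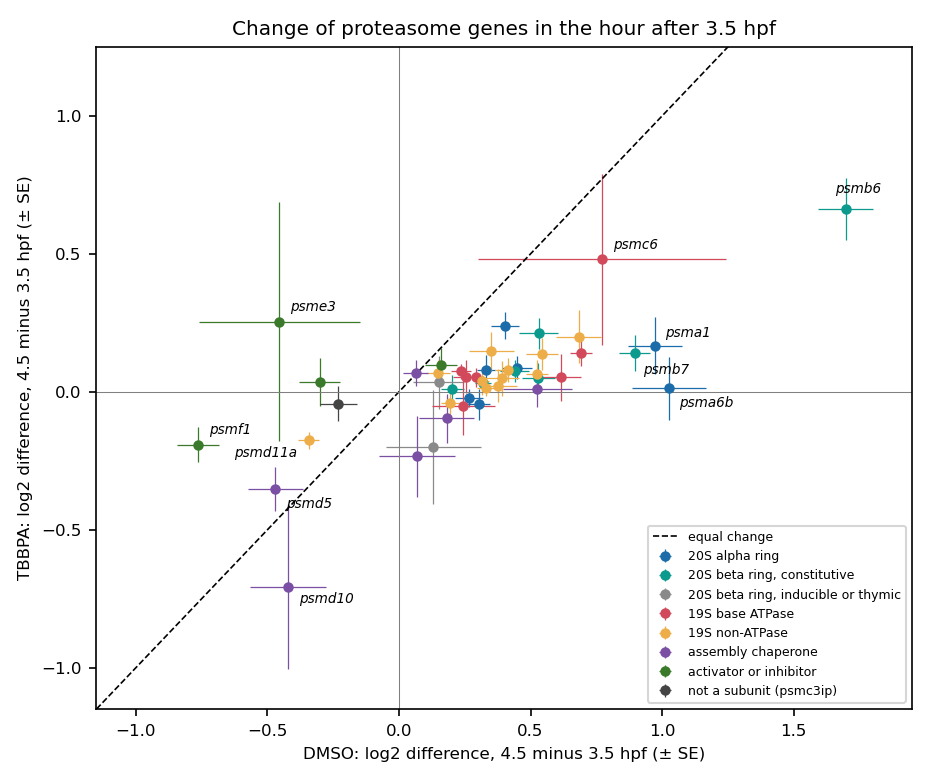
Log2 change of the 46 tested members between 3.5 and 4.5 hpf in TBBPA (vertical axis) and in DMSO (horizontal axis) embryos, each point a gene with its SE on both axes and the dashed line marking equal change. The change in DMSO was larger in size for 42 of the 46 genes, and most points sit along a TBBPA change near 0. That count was not made over all genes. Of all genes tested, 6.15% rose and 8.60% fell in TBBPA embryos, and 35.8% rose and 34.3% fell in DMSO embryos.

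The largest rise was in psmb6 in both treatments. In TBBPA embryos psmb6 had 4.09, 4.99, 4.07 and 3.98 FPKM at 4.5 hpf and 3.06, 1.99, 1.99 and 2.38 FPKM at 3.5 hpf (log2 difference 0.66, SE 0.11, limma adjusted p = 0.00405). In DMSO embryos it had 11.9, 13.8, 10.3 and 13.9 FPKM at 4.5 hpf and 3.27, 3.24, 3.42 and 2.63 FPKM at 3.5 hpf (log2 difference 1.70, SE 0.10, limma adjusted p = 2.07e-07). The libraries of the times did not overlap in either treatment, and the ratio of means was 1.82 in TBBPA and 3.98 in DMSO embryos. The genes psma6b, psma1, psmb7, psmc5, psmd4b and psmc1b had the next largest rises among the called genes in DMSO embryos. Their log2 changes in TBBPA embryos were 0.01, 0.17, 0.14, 0.14, 0.20 and 0.05, and none of the 6 passed. With the replicate number as a block psmb7 (limma adjusted p = 0.0373) and psmc5 (0.0260) passed there, and psmc5 also without TBBPA replicate 2 of 3.5 hpf (0.0488). In DMSO embryos the changes of these genes were 1.03, 0.97, 0.90, 0.69, 0.68 and 0.62. For psmb7 the libraries held 49.4, 43.7, 48.4 and 46.3 FPKM at 4.5 hpf and 47.3, 37.3, 43.1 and 42.6 FPKM at 3.5 hpf in TBBPA embryos, which overlapped. In DMSO embryos they held 79.1, 83.7, 83.4 and 94.9 FPKM at 4.5 hpf and 47.0, 47.1, 45.3 and 41.9 FPKM at 3.5 hpf, which were far apart.

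The other members that rose in TBBPA embryos were psma2 and psmb2. The gene psma2 had 17.6, 16.5, 16.02 and 16.5 FPKM at 4.5 hpf and 13.5, 14.7, 14.3 and 13.4 FPKM at 3.5 hpf (log2 difference 0.24, limma adjusted p = 0.00981), and the mean of 16.7 ± 0.69 FPKM in TBBPA embryos of 4.5 hpf lay beside 16.4 ± 0.55 FPKM in DMSO embryos of 3.5 hpf. The psmb2 change (0.21, limma adjusted p = 0.0291) was lost without TBBPA replicate 1, 2 or 3 of 3.5 hpf or TBBPA replicate 2, 3 or 4 of 4.5 hpf, and with the replicate block it had an adjusted p of 0.0506. Over the 46 genes, the mean in TBBPA embryos of 4.5 hpf was a median 1.02 times the mean in DMSO embryos an hour earlier, with a range of 0.848 to 1.63. It was a median 0.80 times the mean in DMSO embryos of the same age, with a range of 0.343 to 1.79. Neither ratio of means was computed over all genes. Of all genes tested, 6.15% rose and 8.60% fell between 3.5 and 4.5 hpf in TBBPA embryos. No trait particular to the members can therefore be read from the ratio of 1.02.

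A few members fell between 3.5 and 4.5 hpf, among them the PI31 gene. The comparison of times in DMSO embryos shares the DMSO libraries of 4.5 hpf with that of treatments at 4.5 hpf, so the values of these comparisons are not independent. In TBBPA embryos psmf1 had 29.5, 28.9, 28.2 and 26.2 FPKM at 4.5 hpf and 35.4, 34.1, 30.0 and 30.0 FPKM at 3.5 hpf. That change was -0.19 on the log2 scale and did not pass (limma adjusted p = 0.0665), though the libraries of the times did not overlap. With the replicate number as a block it passed, at a limma adjusted p of 0.0177. In DMSO embryos psmf1 had 16.1, 17.9, 15.7 and 13.2 FPKM at 4.5 hpf and 29.1, 26.1, 27.4 and 26.3 FPKM at 3.5 hpf (log2 difference -0.76, SE 0.080, limma adjusted p = 1.04e-05). The other members that fell in DMSO embryos were psmd5, psmd10, psmd11a, psme4a and psmc3ip, with log2 changes of -0.47, -0.42, -0.34, -0.30 and -0.23. Of these, psmd5 and psmd11a also fell in TBBPA embryos, with log2 differences of -0.35 and -0.18 (limma adjusted p = 0.0167 and 0.00501). The psmd10 call in DMSO embryos was lost without replicate 1 or 2 of either time, with the replicate block (limma adjusted p = 0.0574) and with no filter (0.0587). Across the 46 genes the changes in TBBPA and DMSO embryos, which share no library, correlated at Pearson r = 0.682, a description over genes that share a depth and a scaling within each library. The correlation was not computed over all genes, so no trait particular to the members can be read from it.

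Whether the effect of TBBPA changed with time was tested as an interaction (effect at 4.5 hpf minus that at 3.5 hpf) over the 16 libraries of the shared table. It was negative and past the threshold for 27 of 46 members and positive for 3, where it was negative for 26.6% and positive for 26.3% of all 12780 genes tested. The median over members was -0.29. The most negative values were in psmb6 (-1.04, SE 0.16), psma6b (-1.01, SE 0.19), psma1 (-0.80, SE 0.15), psmb7 (-0.75, SE 0.095) and psmc1b (-0.56, SE 0.12), with limma adjusted p of 4.08e-05, 3.25e-04, 1.98e-04, 5.52e-06 and 7.85e-04. The positive values were those of psmf1 (0.57, limma adjusted p = 2.83e-04), psme4a (0.34, 0.0150) and psmd11a (0.17, 0.00675). For psmd5, which was higher in TBBPA at both times, the interaction was 0.12 and did not pass (limma adjusted p = 0.482). Of the 33 tested core-particle and 19S genes, 26 had a called negative interaction and psmd11a a called positive one.

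**Figure D5:**
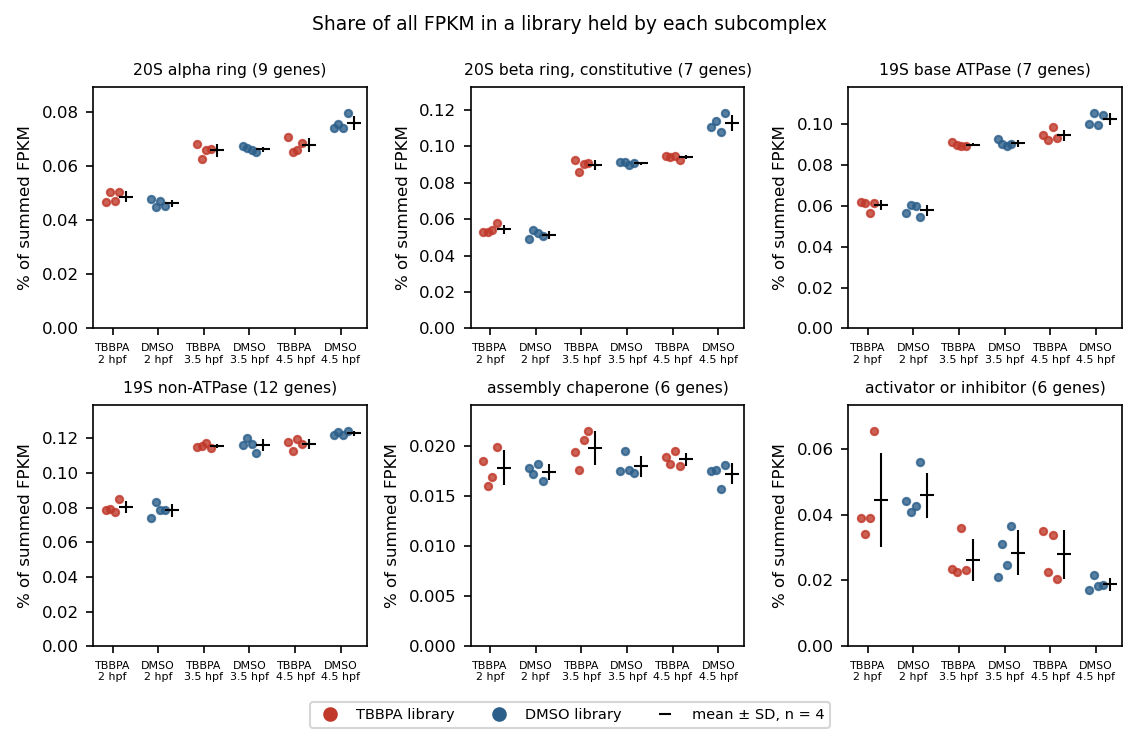
Share of the summed FPKM of a library held by each of 6 classes of members, in percent, with TBBPA left of DMSO at each time, a point for each of the 4 libraries and the mean ± SD. The constitutive beta-ring genes held 0.0940% ± 0.0012 in TBBPA and 0.113% ± 0.0044 in DMSO embryos of 4.5 hpf.

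Summed by subcomplex, the members differed in level as their genes did. The 7 constitutive beta-ring genes summed to 347, 348, 354 and 341 FPKM in the TBBPA libraries of 4.5 hpf and 456, 475, 448 and 504 FPKM in the DMSO libraries. The 9 alpha-ring genes summed to 251 ± 8.8 FPKM in TBBPA and 317 ± 15.5 FPKM in DMSO embryos, the 7 ATPase genes to 350.1 ± 11.8 and 428 ± 16.6 FPKM, and the 12 non-ATPase genes to 432 ± 12.4 and 514 ± 12.2 FPKM. For these 4 subcomplexes the libraries of TBBPA and DMSO embryos did not overlap in summed FPKM at 4.5 hpf. The summed FPKM of all genes was also lower in TBBPA without overlap at that time, at 367909 to 372903 in TBBPA and 413743 to 426367 in DMSO libraries. As shares of the summed FPKM of a library, the 4 subcomplexes were also lower in TBBPA without overlap. At 3.5 hpf the summed FPKM of each of the 4 subcomplexes overlapped, with the beta ring at 331 ± 10.5 FPKM in TBBPA and 338 ± 4.4 FPKM in DMSO embryos. The 6 chaperone genes summed to 69.0 ± 2.8 FPKM in TBBPA and 72.1 ± 5.0 FPKM in DMSO embryos of 4.5 hpf, with overlap. All 55 genes summed to 1586 ± 56.1 FPKM in TBBPA and 1911 ± 78.1 FPKM in DMSO embryos.

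The scaling of the libraries bears on the size of these differences. With every library rescaled to the same FPKM sum, the median log2 difference at 4.5 hpf was -0.14 over members and 0.14 over all genes, a distance of -0.28 where the deposited scaling gave -0.27. Under that scaling 23 members were lower and 7 higher in TBBPA, beside 2793 lower and 5379 higher among all genes. The members no longer called lower were psma3, psma6a, psmb5, psmc1a, psmc2, psmc4, psmd4a, psmd9, psme4b and psmg2. The interaction was then called negative for 15 members and positive for 4, beside 2013 and 4659 of all 12780 genes tested. With every library rescaled to the same total of recovered reads, 26 members were lower and 6 higher in TBBPA at 4.5 hpf. Among all genes 3049 were lower and 5091 higher. The median log2 difference was then -0.17 over members and 0.10 over all genes. With that rescaling the interaction was called negative for 19 members and positive for 4, beside 2306 and 4346 of all genes.

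Other genes of the ubiquitin-proteasome pathway were followed through lists of their own. For these lists, fell and rose at 4.5 hpf mean lower and higher in TBBPA than in DMSO embryos of that age. Of all genes tested at that age, 35.0% fell and 33.1% rose, with a median log2 difference of -0.02. Of 10 tested proteasome assembly and associated factors, 6 fell and 3 rose at 4.5 hpf (median log2 difference -0.31). Among those with the largest differences, zfand5a, of a family of proteasome-associated zinc finger proteins, fell (-0.74, limma adjusted p = 9.03e-07) and zfand2a, an arsenite-inducible member of the same family, rose (0.66, limma adjusted p = 2.41e-05). Named for their roles after their values were seen, pomp, the maturation factor of the core, had 45.5 ± 3.5 FPKM in TBBPA and 59.2 ± 2.6 FPKM in DMSO embryos, and sem1, a small lid subunit, 25.8 ± 1.8 and 36.6 ± 0.95 FPKM. The log2 differences were -0.38 and -0.49 (limma adjusted p = 1.48e-04 and 1.30e-05). The ubiquitin receptor gene adrm1, also named after its values were seen, fell as well (-0.54, limma adjusted p = 0.00164). Named in the same way, zfand5b, a more abundant paralog of zfand5a, had a higher mean in TBBPA. It had 262 ± 13 FPKM in TBBPA and 233 ± 7.6 FPKM in DMSO embryos of 4.5 hpf. The mean of akirin2 was also higher, at 156 ± 4.4 FPKM in TBBPA and 144 ± 5.9 FPKM in DMSO embryos. Proteasome genes that the rule missed by their spelling, chosen after the tables were seen, were PSMD2 and si:rp71-45k5.4, a synonym of which is psma2b. Both fell at 4.5 hpf, with log2 differences of -0.35 (limma adjusted p = 2.27e-05) and -0.84 (limma adjusted p = 2.35e-06).

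Of 12 tested genes for ubiquitin, activating enzymes and shuttle factors, 9 fell and 2 rose at 4.5 hpf (median -0.36, against -0.02 over all genes tested). Of all genes 35.0% fell and 33.1% rose. The 12 include uba2 and uba3, which belong to the activating enzymes of the related modifiers SUMO and NEDD8. The shuttle factor gene ubqln4 fell, with a log2 difference of -0.98 (limma adjusted p = 1.08e-07). The next genes, vcp included, were named after their values were seen. The polyubiquitin gene ubc had 836 ± 42.3 FPKM in TBBPA and 1084 ± 55.7 FPKM in DMSO embryos (log2 difference -0.37, limma adjusted p = 3.35e-05), whereas uba1, the main ubiquitin-activating enzyme gene, had 101 ± 5.9 FPKM in TBBPA and 57.1 ± 2.1 FPKM in DMSO embryos (0.81, 2.60e-07). Of 15 tested genes for the unfoldase VCP and its cofactors 8 fell and 5 rose (median -0.10), with vcp itself at 26.1 ± 1.7 FPKM in TBBPA and 35.5 ± 1.1 FPKM in DMSO embryos. The largest differences in that list were rises, of 0.84 in ubxn6, 0.73 in nploc4 and 0.65 in ubxn2a. Genes of structurally related or functionally linked complexes were counted against the same shares of all genes, 33.1% higher and 35.0% lower, and no difference between lists was tested. In the COP9 signalosome, a relative of the 19S lid, 3 of 6 tested genes rose and 2 fell (median 0.12), with gps1 at 0.54. In the anaphase-promoting complex, a ubiquitin ligase, 5 of 15 rose and 4 fell (median 0.09), with fzr1a at -0.42 and anapc4 at 0.39. Of 11 tested genes of MHC class I antigen processing 3 rose and 1 fell (median -0.03), with erap1b at 0.40. Of 5 tested genes around NRF1, the factor that induces proteasome genes in mammals, 2 rose and 1 fell (median 0.32), with ngly1 at 0.42. The 5 include nfe2l2b, a gene of the related factor NRF2, at 2.62 ± 0.58 FPKM in TBBPA and 0.958 ± 0.28 FPKM in DMSO embryos. They also include ddi2, which is counted in the ubiquitin list as well. The NRF1 genes themselves, nfe2l1a and nfe2l1b, had means of at most 0.11 FPKM in every group and were not tested. In the cytosolic chaperonin, another ring complex, 4 of 8 fell and 0 rose (median -0.21), with cct4 at -0.83 and cct3 at -0.39. In the cytosolic ribosome 69 of 76 fell and 0 rose (median -0.56), so a lower level at 4.5 hpf was not particular to proteasome genes.

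At 3.5 hpf 1 of 10 assembly and associated factors was lower and 0 higher in TBBPA, 2 of 12 ubiquitin genes and 2 of 15 genes of VCP and its cofactors were higher, and 0 of 6 signalosome and 0 of 8 chaperonin genes were called in either direction by limma, beside 6.67% higher and 5.34% lower of all genes. Of 76 ribosomal protein genes 7 were lower at that time and 0 higher. Between 3.5 and 4.5 hpf the ribosomal protein genes rose in 19 of 76 cases in TBBPA embryos and 73 of 76 in DMSO embryos, beside 6.15% of all genes in TBBPA and 35.8% in DMSO embryos. The ubiquitin list rose in 3 of 12 cases in TBBPA embryos and 10 of 12 in DMSO embryos, and the assembly list in 1 of 10 in TBBPA and 6 of 10 in DMSO embryos. The median log2 change of the ribosomal protein genes was 0.13 in TBBPA and 0.61 in DMSO embryos, beside 0.05 and 0.32 for the proteasome genes.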

How the data were processed

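RNA was extracted from whole embryos, and libraries were made from fragmented RNA with random hexamers, per the labels' protocols. HISAT2 2.0.5 and featureCounts 1.5.0-p3 are named in the submitters' processing notes, and the sources used here give no genome build or annotation. The authors deposited FPKM per gene and library, with gene lengths in bases, in 2 tables. FPKM steps, which are whole multiples of 1 read for a gene (within 0.001 of a step for 100% of values), gave the recovered reads. In each table the value of 1 read followed the median-of-ratios size factor of the library, a scaling that keeps the median gene level and lets summed FPKM differ between libraries.

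Differences were tested with limma 3.58.1 in R 4.3.3 (moderated test with a trend, 2-sided) on log2(FPKM + 1) over every gene that reached 1 FPKM in 4 or more of the fitted libraries, using only the groups compared. P-values were adjusted by Benjamini-Hochberg over all genes tested, with a threshold of 0.05, and a fold change on this scale understates that of weakly expressed genes. Tables were handled in Python 3.11.15 with pandas 2.3.3 and numpy 2.4.6, and the fit was tested on simulated data. The members and the gene lists were chosen with earlier results of these data known. Values in every library of at least 1 time are given for the catalytic genes and for tested inducible and regulator genes and paralogs. They are also given for the 5 largest rises and falls of each comparison among called genes with a mean of at least 5 FPKM. Other members named with such values were chosen after their values were seen. From the other lists, some of the genes with the largest called differences are named, and 1 gene is not reported here. Alternatives were other scalings, a pseudocount of 0.1, other filters, limma voom on recovered reads, a replicate block and leaving out each library. No replicate pair agreed within sampling noise (chi-square per gene of 2.65 to 15.7 over 36 pairs). A check of the replicate numbers did not establish a pairing of the samples and could not exclude one. The main fits carry no block, and fits with a block are given below.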

Additional observations from a re-analysis of the deposited data

Results flagged for a closer look

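In 137 tests of single libraries against the other 3 of their group, over 27 of the genes, 10 libraries stood apart, where chance gives about 1 in 20. The highest library was flagged for psme3 in TBBPA embryos of 2 hpf (134 FPKM) and of 3.5 hpf (82.3 FPKM), for psmb6 in TBBPA embryos of 4.5 hpf (4.99 FPKM), for psmb10 in DMSO embryos of 3.5 hpf (2.37 FPKM) and of 4.5 hpf (2.94 FPKM), and for psmd4a in DMSO embryos of 3.5 hpf (4.18 FPKM). The lowest library was flagged for psmb2 in TBBPA embryos of 3.5 hpf (18.1 FPKM), for psmc5 (46.9 FPKM) and psmd5 (2.84 FPKM) in DMSO embryos of 4.5 hpf, and for psmd4b in DMSO embryos of 2 hpf (2.10 FPKM). The psmb10 values rest on levels of 1 to 3 FPKM.

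The TBBPA effect differed between 4.5 and 3.5 hpf, by the limma interaction test, for 30 of 46 genes. Over all 12780 genes tested it was called negative for 26.6% and positive for 26.3%. The values below are the log2 effect at 4.5 hpf minus that at 3.5 hpf, and SEs and adjusted p of the largest stand in the report. In the alpha ring the differences were -1.01 in psma6b, -0.80 in psma1, -0.36 in psma8, -0.35 in psma4, -0.29 in psma6a and -0.25 in psma3. In the beta ring they were -1.04 in psmb6, -0.75 in psmb7, -0.48 in psmb3, -0.36 in psmb1, -0.32 in psmb2, -0.29 in psmb4 and -0.19 in psmb5. The psmb5 call was lost in 7 of the fits that left out a single library. Of the ATPase genes, psmc1b had -0.56, psmc5 -0.55, psmc3 -0.24 and psmc4 -0.16. Of the non-ATPase genes, psmd4b had -0.48, psmd12 -0.46, psmd13 -0.41, psmd3 -0.35, psmd7 -0.34, psmd11b -0.33, psmd1 -0.32, psmd8 -0.27 and psmd14 -0.23. The chaperone gene psmd9 had -0.51. Positive differences were 0.57 in psmf1, 0.34 in psme4a and 0.17 in psmd11a.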

How the results depend on the processing

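At 3.5 hpf the 2 higher members became 0 without a filter and 0 to 2 when each library was left out, the 2 lower became 1 to 2, and the calls over all genes, 1424, became 925 to 1510, the lowest without TBBPA replicate 2. At 4.5 hpf the 6 higher members became 3 with a filter of 5 FPKM, which fewer members passed, and leaving out a library gave 5 to 6 higher and 29 to 33 lower. Between 3.5 and 4.5 hpf the 6 lower members in DMSO embryos became 3 with that filter. In TBBPA embryos calls over all genes, 1753, became 1107 to 1699, with 1152 without TBBPA replicate 1 and 1131 without replicate 2 of 3.5 hpf, and 1118 without replicate 3 and 1107 without replicate 4 of 4.5 hpf. The 27 members with a negative interaction became 15 under TPM scaling, a rescaling that by construction removes the difference in summed FPKM.

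TPM scaling turned the sign of psmg1 at 4.5 hpf (0.12, limma adjusted p = 0.0364), of psmd6 (-0.017) and psme4b (-0.00043) in the DMSO time comparison, and of psmc4 in the interaction (0.0014), and moved the median of all genes to 0.14 at 4.5 hpf, -0.13 in the DMSO time comparison and 0.15 in the interaction. With it 25 members rose in DMSO embryos, and 27 with total-count scaling, beside 3068 and 3308 of all 12354 genes tested.

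The replicate numbers were checked for pairing. Deviations of same-numbered libraries correlated at -0.178 to 0.207 at 4.5 hpf and at 0.0428 to 0.286 over time in TBBPA, where 3 of 4 libraries correlated best with their own number, and every pair exceeded 0.1 in no comparison. With the replicate block 0 members were called at 2 hpf, 2 higher and 2 lower at 3.5 hpf, 6 higher and 31 lower at 4.5 hpf, 4 and 3 over time in TBBPA, 32 and 6 over time in DMSO, and 3 and 28 in the interaction. Counts over all genes were 0, 1502, 8293, 1967, 8567 and 6863 in the same order. Calls of psmc2 and psmd9 at 4.5 hpf were lost under it (limma adjusted p = 0.0514 and 0.0711). Over time it replaced psmd10 by psme3 among the lower members in DMSO, and in TBBPA it added psmb7, psmc5 and psmf1 and lost psmb2. It added psmc2 in the interaction. Leaving out single libraries also gained calls of psmc1a, psmc6 and psmg2 over time in DMSO, of psmd6 and psmf1 over time in TBBPA, and of psma2, psmc1a, psmc2, psmc3ip, psmd4a and psmg2 in the interaction. The negative interaction of psmb5 was lost in 7 such fits, at limma adjusted p of 0.0533 to 0.0666. The psme4b rise over time in DMSO was lost without replicate 1, 2 or 3 of 3.5 hpf or replicate 3 or 4 of 4.5 hpf.

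Members under about 1 FPKM rest on few reads, which limits what these libraries can show of them. With no filter at 4.5 hpf 53 members were tested, 6 higher and 32 lower in TBBPA. Over all 24733 genes tested without a filter 4290 were higher and 5218 lower.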
